A study of Mus musculus with 3 samples.

Results

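The transcription factors that set the fate of photoreceptor precursors, Crx, Nrl, Neurod1, Prdm1, Mef2c and Rxrg, were examined in the neural retina of Rp1-/- mice at postnatal day 10. They were taken as every probe set of the deposited table to which the platform annotation gave 1 of these 6 symbols and no other, which was 9 of the 10833 probe sets with a single symbol and 6 of 8251 named genes. Neurod1, Crx, Nrl, Prdm1 and Rxrg had 1 probe set each and Mef2c had 4. RNA had been hybridised to Affymetrix U74Av2 arrays, on which short oligonucleotides are grouped into probe sets for each transcript. The samples were 3 arrays in 1 group: total RNA of 3 pools, each of retinas from 3 to 4 mice lacking Rp1, on a 129/SvEv and C57BL/6 mixed background, collected between 1 and 2 pm. Rp1 protein sits on the axoneme of rod and cone outer segments, and mice without it lose photoreceptors over time. Rp1 itself was not analysed here, so the signals do not check the knockout in any pool. Genotypes could not be compared, since the descriptions give the knockout for all 3 samples. For pool 1 the genotype rests on that description alone, because rp1 appears in the titles of pools 2 and 3 and not in that of pool 1. The labels gave no pool numbers, so pools 1, 2 and 3 are names in the order of the records, and nothing showed whether their mice were littermates. Whether a difference between pools reflects animals, dissection or hybridisation cannot be told apart with 1 array per pool. Fewer cells of a type and less RNA per cell cannot be told apart either, since the RNA came from whole retina.

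Photoreceptor precursors leave the cell cycle under the homeodomain factor Otx2, which switches on its relative Crx. Crx binds sites near most rod and cone genes and raises their transcription. Nrl, a basic leucine zipper protein of the Maf family, acts together with Crx and commits the precursor to the rod fate, and without it the cell becomes a cone resembling those for short wavelengths. Prdm1 (Blimp1), a zinc finger repressor, holds newborn precursors in the photoreceptor lineage and keeps them from becoming bipolar cells. Neurod1, a basic helix-loop-helix activator, maintains photoreceptors and cone opsin identity. Mef2c is a MADS-box activator that cooperates with other factors on photoreceptor genes, and Rxrg is a retinoid X receptor of cones that pairs with the thyroid hormone receptor. In mouse retina at this age rod production has ended and outer segments are growing.

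The arrays carried the transcripts of retina. All 18 genes with a probe set in a list of 30 rod genes had a mean signal above background, and 17 of them were above it in every pool. Background was set on each array as the 90th percentile of 19 bacterial and yeast control probe sets, which gave floors of 100.5, 124.8 and 120.4 signal units in pools 1, 2 and 3. A probe set is called measured where its mean signal exceeded the mean floor of 115.2, as it did for 8327 of 12422 gene probe sets (67.0%). The pools differed in lens genes, whose brightest sets over 12 genes summed to 94951, 25486 and 203758 signal units in pools 1, 2 and 3. Pool 1 differed from pools 2 and 3 in Xist, which is transcribed from the inactive X chromosome of females (69.5, 1384.4 and 1543.7). The 3' probe set of Actb over its 5' probe set, a measure of RNA integrity, was 1.10, 1.40 and 1.63 in pools 1, 2 and 3, and that of Gapdh 0.825, 0.904 and 0.750.

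Crx, the homeodomain activator of rod and cone genes, was far above background in all pools. Its probe set (99900_at) gave signals of 9534.7, 8344.9 and 7996.3 in pools 1, 2 and 3, with a mean of 8625 ± 807 (SD, n = 3). These were 94.9, 66.8 and 66.4 times the floor of the same array. Pool 1 was highest and pools 2 and 3 lay close together, and the whole range was 1.19-fold. On the log2 scale the SD was 0.13, and 27.6% of probe sets in the same decile of mean signal had a lower one. The haemoglobin genes had the same order of pools as Crx, with 16422.3, 9461.1 and 8110.5 signal units for Hba-a1 and 3819.7, 2995.5 and 2195.6 for Hbb-b2. The other red cell genes did not: Alas2 had 299, 215.1 and 239.6, Slc4a1 was highest in pool 3, and Car1 was not measured. The 5 genes summed to 20634, 12833 and 10757, and the part of blood in the Crx values was not tested.

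The promoter of Crx holds the letters that Crx and Otx2 bind, and it is shown here because Crx is known to take part in its own regulation. The window of the RefSeq table (GRCm38.p6) runs from 250 bases before to 50 bases after the annotated start. The motif TAATCC was searched on both strands, where its other strand reads GGATTA. In Crx it occurred 2 times, at positions -94 and -21 from the start, each on the opposite strand. The 250 bases before the start are printed 5′ to 3′ on the strand of the gene, with these motifs in capitals.
Crx (chr7:15879956-15880205, minus strand): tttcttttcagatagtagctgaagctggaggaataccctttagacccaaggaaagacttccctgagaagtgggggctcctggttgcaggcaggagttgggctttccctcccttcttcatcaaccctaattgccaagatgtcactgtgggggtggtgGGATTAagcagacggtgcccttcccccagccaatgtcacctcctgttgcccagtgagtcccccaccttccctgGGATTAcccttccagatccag
This motif was found in 2320 of 32851 promoter windows (7.06%), and in 1 of the 9 windows of the 6 genes. A match of letters is a description of the window and says nothing of binding in these retinas.

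Rod genes carried the same letters in a larger share of windows. Of 26 windows belonging to 23 genes of the rod list, 11 (42.3%) held the TAATCC motif, against the 7.06% of all windows. These rod genes were listed as targets of Crx and Nrl from what is known of them, so the share is no independent evidence. In the cone list 2 of 8 windows held it, those of Gnat2 and Guca1a. The sites of the 6 rod genes that had both a match and a measured probe set, and that of the cone gene Gnat2, are given below on the strand of each gene with 10 bases on either side and the motif in capitals.
Sag (chr1:87803583-87803608, plus strand): aagaggtttaGGATTAaaaaaaaaaa
Cnga1 (chr5:72642965-72642990, minus strand): tgtctcatttTAATCCtaatgataaa
Abca4 (chr3:122044392-122044417, plus strand): aattagagggGGATTAtgcttgaagg
Guca1a (chr17:47400648-47400673, minus strand): tgttaagaagGGATTAgcagactgca
Gucy2e (chr11:69237049-69237074, minus strand): cggcttggagGGATTAagggctgcag
Unc119 (chr11:78345456-78345481, plus strand): tgctgtttctGGATTAccaggccttg
Gnat2 (chr3:108093037-108093062, plus strand): gacaatccccGGATTAggaaggagct
Sag, which encodes rod arrestin, gave 20486.2, 27334.3 and 26845.2 signal units in pools 1, 2 and 3, and Abca4, the transporter that clears retinal from discs, gave 2791.6, 3576.2 and 2820.8. Cnga1, the rod channel subunit, gave 938.4, 1556.4 and 1182.3, and Gnat2, the cone transducin alpha subunit, 923.3, 1596.4 and 1146.7. All 4 of these genes were lowest in pool 1, the pool in which Crx was highest, and so was Guca1a (1251.2, 1606.7 and 1759.6). Abca4 was nearly equal in pools 1 and 3. Over all measured probe sets the orders with pool 1 lowest were held by 18.2% and 16.5%. Unc119, a carrier of lipidated proteins, was also lowest in pool 1 but nearly even at 11518.8, 12304.4 and 12159.9. Gucy2e, the guanylate cyclase of outer segments, had the order of Crx, at 476.6, 431.6 and 352.8. Of the 6 rod genes with the motif, 4 were highest in pool 2 and 1 each in pools 1 and 3, and of the 8 with a window but no motif, 5 were highest in pool 2, 2 in pool 1 and 1 in pool 3.

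Nrl, the factor that commits precursors to the rod fate, was above background on every array. Its probe set (102612_at) gave 423.9, 547.5 and 529.1 signal units in pools 1, 2 and 3, a mean of 500.2 ± 66.7 (SD, n = 3). Each signal was at least 4.22 times the floor of its array. Pool 1 was lowest, pools 2 and 3 were nearly equal, and the range was 1.29-fold. Its SD of log2 signal was 0.20, against a median of 0.26 for probe sets in the same decile of mean signal. Probe sets differ in how well they hybridise, so the signals of Crx and Nrl are not read against each other as transcript numbers.

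Neurod1, the activator that maintains photoreceptors, had the same low pool. Its probe set (92717_at) gave 4031.1, 5029.6 and 5249.9 signal units in pools 1, 2 and 3, with a mean of 4770 ± 649 (SD, n = 3). Pool 3 was highest and pool 1 lowest, differing 1.30-fold. On the log2 scale the SD was 0.20, and 55.2% of probe sets in the same decile of mean signal had a lower one. Each signal was between 40.1 and 43.6 times the floor of its array. The order of pools was that of the Actb 3' to 5' ratio given above, and Crx had the reverse order, but the Gapdh ratio, highest in pool 2 and lowest in pool 3, had neither. The part of RNA integrity was not tested.

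Between pool 1 and the other pools Crx differed in the opposite direction from Nrl and Neurod1. For pool 1 minus pool 2 the log2 difference was 0.19 for Crx, -0.37 for Nrl and -0.32 for Neurod1. For pool 1 minus pool 3 it was 0.25 for Crx, -0.32 for Nrl and -0.38 for Neurod1. Pools 2 and 3 differed by 0.06 for Crx, 0.05 for Nrl and -0.06 for Neurod1. Over all measured probe sets the median difference was -0.01 for both pairs with pool 1 and 0.01 for pool 2 minus pool 3. With 1 array per pool these differences have no replicate check of their own.

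The promoters of Neurod1 and Nrl are shown because the 2 genes had the most alike values and each window holds the letters that another of the 6 factors binds. TGCTGA, the half-site of Nrl and the Maf proteins, reads TCAGCA on the other strand. The Neurod1 window held it 2 times side by side, at positions -50 and -44, both on the opposite strand. CATCTG, an E-box bound by NeuroD proteins whose other strand reads CAGATG, stood in the Nrl window at -19. The 250 bases before each start follow, from RefSeq (GRCm38.p6) on the strand of the gene, with those motifs in capitals.
Neurod1 (chr2:79456637-79456886, minus strand): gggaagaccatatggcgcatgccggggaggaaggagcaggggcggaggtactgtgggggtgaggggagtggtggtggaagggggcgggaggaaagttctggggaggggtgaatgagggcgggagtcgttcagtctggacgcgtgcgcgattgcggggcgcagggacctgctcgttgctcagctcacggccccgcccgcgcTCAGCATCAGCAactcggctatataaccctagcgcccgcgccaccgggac
Nrl (chr14:55524253-55524502, minus strand): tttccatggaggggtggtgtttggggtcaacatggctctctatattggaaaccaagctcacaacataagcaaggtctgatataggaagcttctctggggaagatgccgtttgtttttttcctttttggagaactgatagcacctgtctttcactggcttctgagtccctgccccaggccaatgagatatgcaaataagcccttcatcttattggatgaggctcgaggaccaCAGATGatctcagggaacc
The Nrl half-site occurred in 6401 of all 32851 windows (19.5%) and the E-box in 5635 (17.2%), so both are common in windows of this length. A Prdm1-type motif (AGNGAAAG, both strands) was found in 8.63% of all windows, and among the 6 genes in those of Crx, Nrl and Mef2c, at -150, -104 and 5 from the start. The nuclear receptor half-site AGGTCA was in 16.3% of all windows and stood in windows of Mef2c and Rxrg. The MEF2 box was in 3.19% of all windows and in none of the 9. No match overlapped another in these windows, and the window of Prdm1 held none of the 6 motifs searched.

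**Figure D1:**
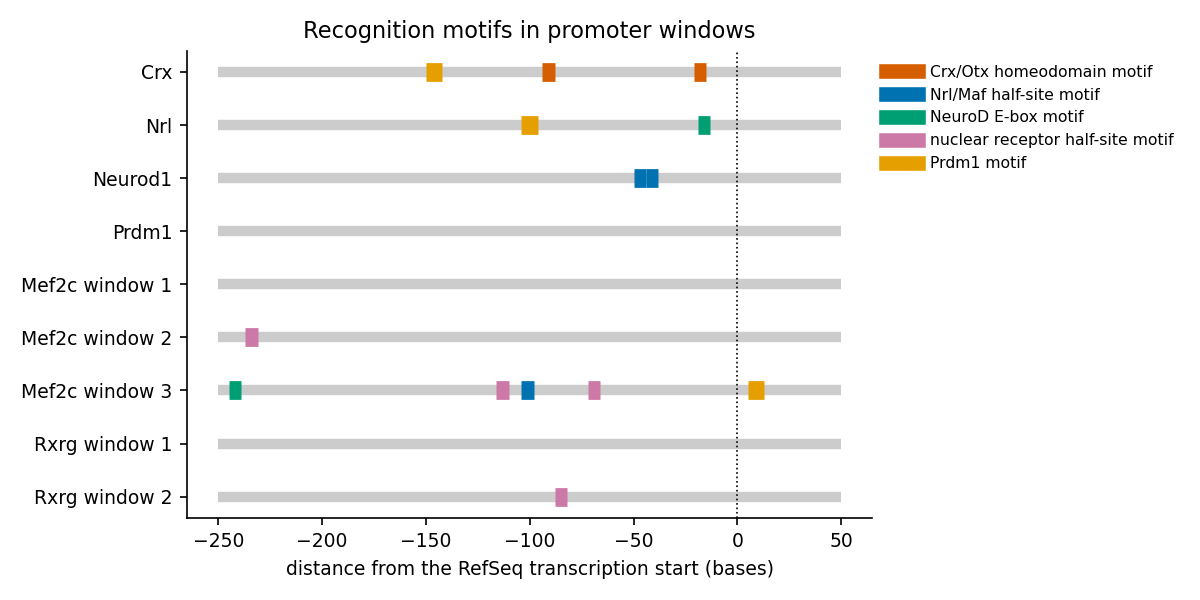
Positions of recognition motifs in the 9 RefSeq promoter windows of the 6 factors. The horizontal axis gives the distance from the transcription start in bases, each grey bar is 1 window from 250 bases before to 50 after the start, and coloured blocks are motif matches on either strand. The 2 Crx/Otx motifs of Crx lie at -94 and -21 and the adjoining Nrl/Maf half-sites of Neurod1 at -50 and -44.

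Prdm1, which keeps precursors from the bipolar fate, had the largest range of the 4 measured factors. Its probe set (92904_at) gave 801.7 signal units in pool 1, 544.1 in pool 2 and 951.8 in pool 3, with a mean of 766 ± 206 (SD, n = 3). Pool 3 was highest and pool 2 lowest, a range of 1.75-fold, and pool 2 was still 4.36 times its floor. The SD of log2 signal was 0.41, above that of 85.5% of probe sets in the same decile, whose median was 0.23. Without pool 2 it was 0.18, and without pool 1 it was 0.57.

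The order of the pools for Prdm1, pool 3 above pool 1 above pool 2, was also that of the lens genes. Of 12 lens genes with a probe set 11 were measured, all 11 in this order by their brightest set. The junction gene Gja3 was not measured, with 37.5, 26.2 and 143.7. Further measured sets of Crygb (306.3, 166.7 and 465.3 in pools 1, 2 and 3) and Cryge (14933.2, 4396.6 and 30408.8) had this order too. A further set of Crybb2 (798.8, 846.6 and 991.3) and another of Cryge (202.3, 241.3 and 207.7) did not. Cryaa, alpha-A crystallin, gave 18251.8, 3496.7 and 40575.6 in pools 1, 2 and 3, differing 11.6-fold, beside 1.75-fold for Prdm1, and 8 of the 11 passed the test of variability described below. Over all measured probe sets this order was held by 1306 (15.7%). The other lens genes that passed were Cryba1, Crybb2, Crygb, Crygc, Crygd, Cryge and Crygs, all crystallins, and Crygs had the widest range at 13.2-fold. Immune cells can also express Prdm1, as plasma cells do. Of 16 immune genes 10 were measured and 4 of these had the order of Prdm1, Cx3cr1, C1qa, Cd68 and Ighm, while the 16 summed to 3888, 4310 and 4125. The brightest immune genes did not have it: Xbp1 had 663.6, 1059 and 736.4, C1qc 583.6, 784 and 731.8, and Ctss 395, 451.8 and 338.5. C1qb had 332, 180.1 and 178.7 by its brightest set, and the reverse order by its other set (198.2, 220 and 245.8). Sdc1 and Irf4, which plasma cells express, were not measured. The part of lens, immune or other tissue in the Prdm1 values was not tested.

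Mef2c and Rxrg were not measured, since the mean signal of every probe set lay below the mean floor. The brightest set of Mef2c, a MADS-box activator (104592_i_at), gave 115.2, 97.6 and 26.4 signal units in pools 1, 2 and 3, above the floor in pool 1 alone at 1.15 times it. A further set (104591_g_at) had 103.6, 74.7 and 18.1, again above the floor in pool 1 alone at 1.03 times it. The remaining sets, 104590_at with 12, 102.7 and 64.8 and 97357_at with 65, 49.4 and 53, were below the floor in all pools. The sets thus did not share an order of pools, and none gives a level for Mef2c.

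Rxrg, the retinoid X receptor of cones, had 62.4, 33.2 and 174.6 signal units in pools 1, 2 and 3 (92237_at). Pool 3 was above its floor, at 1.45 times it, and pools 1 and 2 were below theirs. Of all 12422 gene probe sets, 1230 (9.90%) were above the floor on 1 array alone. A gene at this level was not detectable in pools 1 and 2, which does not show that its transcript is absent. Skeletal muscle also expresses Mef2c and Rxrg: its 15 genes summed to 2413, 1919 and 2432 signal units in pools 1, 2 and 3, and 9 were measured. Myog, a regulator of muscle differentiation, had 398.1, 117.3 and 427.6, below the floor in pool 2. Myod1 had 327, 334.2 and 346.3. The myosin gene Myh4 had 255.6, 146 and 347.6, with its other set below the floor in all pools (7.9, 12 and 67.4). Of the 9 measured muscle genes 5 were highest in pool 3 and 2 each in pools 1 and 2. Mylpf was lowest in pool 3 by its measured set (236.2, 214.7 and 118.6). Over all measured probe sets the orders with pool 3 highest were held by 15.7% and 16.5%. Myh1, Myh2, Myh3, Myl1, Tnnt3 and Tnni2 were not measured. Vessel genes, which accompany Mef2c in endothelium, summed to 2979, 3136 and 3881 over 11 genes, of which 8 were measured. Among them Eng had 702.1, 583.7 and 964.7, Kdr 604.1, 662.6 and 744.2, and Cldn5 404.3, 445.5 and 621.4. Tie1 had 210.8, 123.8 and 118.3, below the floor in pools 2 and 3, and its other set was not measured. The part of these tissues in the Mef2c and Rxrg signals was not tested.

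**Figure D2:**
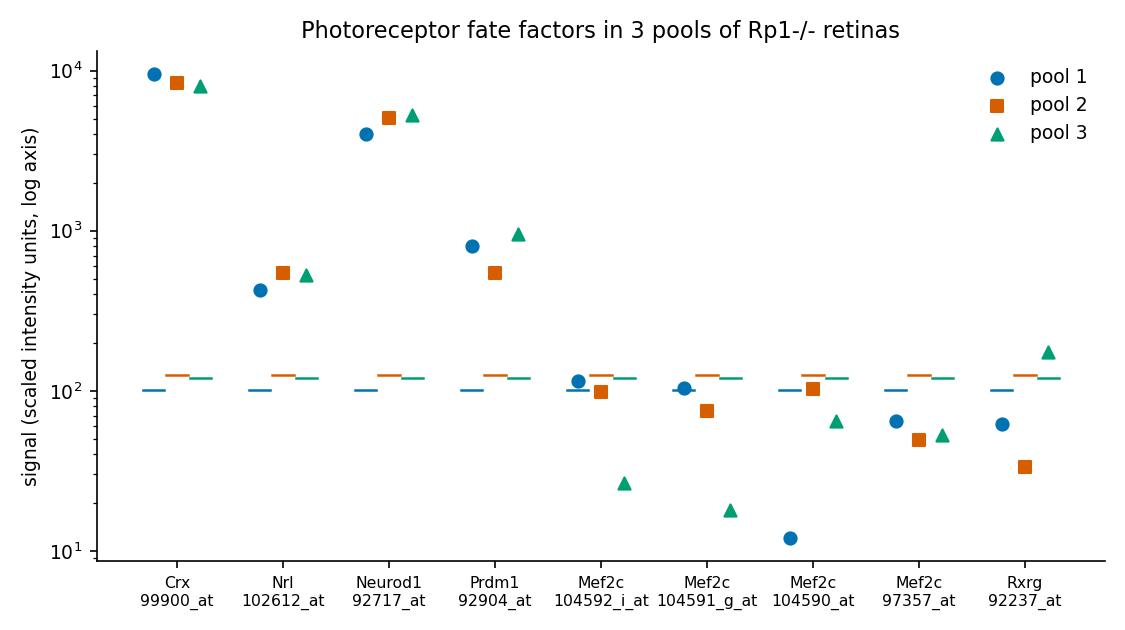
Signal of all 9 probe sets of the 6 factors in pools 1, 2 and 3 of Rp1-/- retina. The vertical axis is a log axis in scaled intensity units, each point is 1 array, and the short lines are the floors of 100.5, 124.8 and 120.4. Crx, Nrl, Neurod1 and Prdm1 lie above the floor in every pool, whereas the sets of Mef2c and Rxrg lie near or below it.

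Relatives of the unmeasured factors were detected. Mef2d, the paralogue of Mef2c that is abundant in photoreceptors, ranged 1.06-fold, with 6685.7, 6751.3 and 6342.5 signal units in pools 1, 2 and 3. Mef2a gave 733.1, 1249.3 and 999.9 by its brightest set, and its other set was not measured. Mef2b gave 696.5, 390.9 and 312.1, while a second Mef2b probe set was below the floor in all pools (78.7, 55.6 and 72.7). Of the Mef2 kinases and repressors, Mapk14 (p38 alpha) was even at 888.5, 930.7 and 878.8, Hdac7 had 1061.1, 1177.9 and 1090.8, and Hdac5 had 2374.4, 1858.1 and 1757.3. Among 8 genes of this list with a probe set 7 were measured, Camk4 was not, and 0 passed the test (limma), with 0 at an unadjusted p under 0.05.

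The partners of Rxrg were also present. Rxra had 721.7, 830.2 and 566.9 signal units in pools 1, 2 and 3, and its second probe set was steadier at 474.7, 489.2 and 476. Rxrb had 2030.8, 1826.6 and 1226.7. Thra, a thyroid hormone receptor, had 5306.8, 4143.3 and 4619.4, with a second set at 130.6, 169.7 and 222. Thrb, which directs the cone opsin for medium wavelengths, had 171.6, 167.5 and 369.7, highest in pool 3, the pool in which Rxrg was above its floor. Of 16 genes in this list with a probe set, 11 were measured and 0 passed the test (limma), with 0 at an unadjusted p under 0.05. Rarg, Nr1h3, Ppard, Pparg and Ncoa3 were not measured.

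**Figure D3:**
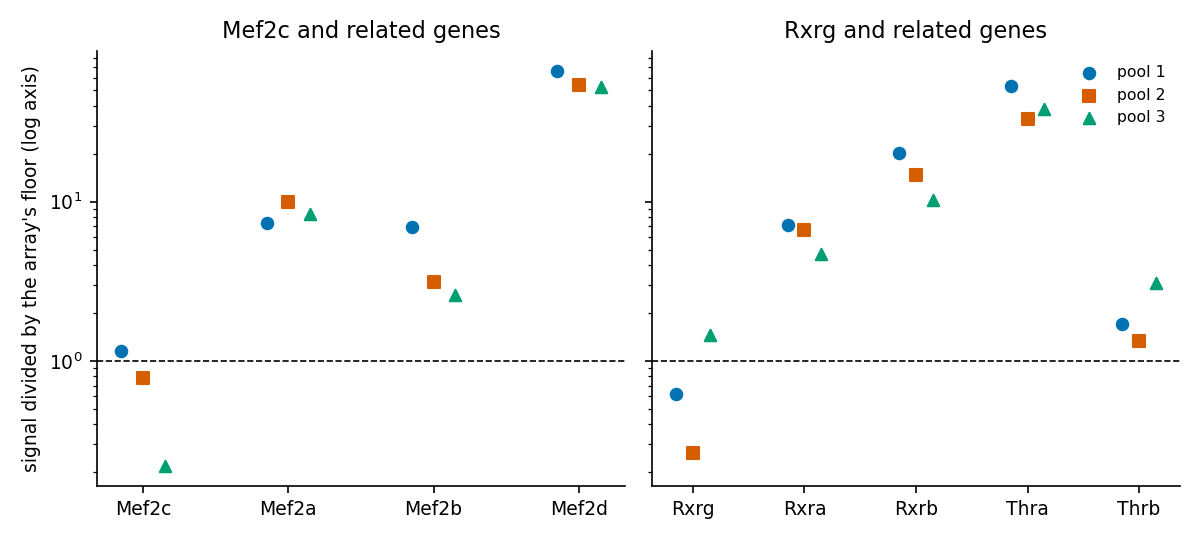
Detection of Mef2c, Rxrg and related genes. The vertical axis is the signal divided by the floor of the same array, on a log axis, each point is 1 pool, and the dashed line marks the floor. Heights of different genes are not relative amounts of transcript. Mef2c reached the line in pool 1 and Rxrg in pool 3, and the related genes, each by its brightest set, were above it in all pools.

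None of the 4 measured factors passed a test of variability between pools. The test fitted the residual variances of all 8327 measured probe sets with limma and asked whether each was larger than those of probe sets of like signal; 18 of the 8327 passed at an adjusted p under 0.05, which is 0.216%. Of the 4 measured factors 0 passed, and 0 of 4 had an unadjusted p under 0.05, against 445 of 8327 (5.34%). Without pool 1 the unadjusted p of Prdm1 was under 0.05 and its adjusted p was 0.797 (limma). The adjusted p was 0.993 for Crx, 0.992 for Nrl, 0.991 for Neurod1 and 0.987 for Prdm1 (limma, n = 3). With 3 arrays a test of this kind finds only large differences, so a p above the threshold does not show that the pools were equal. The median SD of log2 signal of the 4 factors was 0.20, against 0.27 for all measured probe sets. For probe sets in the same decile of mean signal the median SD was 0.19 for Crx and Neurod1, 0.26 for Nrl and 0.23 for Prdm1. The median SD of the 4 factors was 0.04 without pool 1, in which Crx was highest and both Nrl and Neurod1 were lowest. From pools 2 and 3 alone the SD was 0.04 for Crx, 0.03 for Nrl and 0.04 for Neurod1, but 0.57 for Prdm1. Pool 1 was also the pool with Xist below the floor, and the part of this in the values was not tested.

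**Figure D4:**
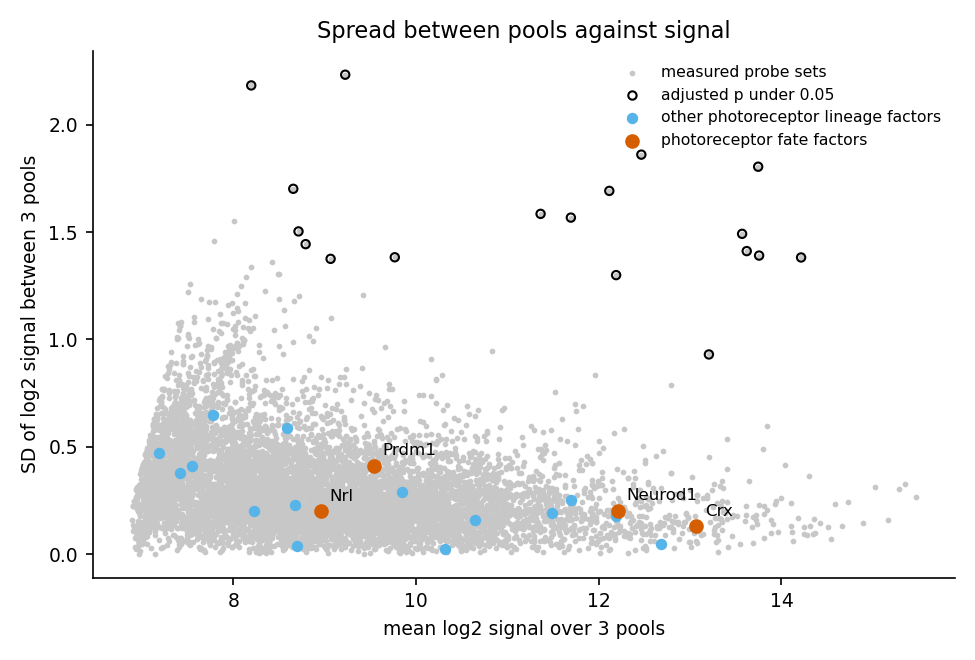
SD of log2 signal between the 3 pools (vertical axis) against mean log2 signal (horizontal axis) for the 8327 measured probe sets in grey. Orange points are the 4 measured photoreceptor fate factors, blue points the other photoreceptor lineage factors, and open circles the 18 probe sets with an adjusted p under 0.05. The orange points, with SDs from 0.13 for Crx to 0.41 for Prdm1, lie among the grey ones.

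Each of the 4 measured factors had a pool order of its own. It ran from pool 1 down to pool 3 for Crx and the reverse for Neurod1, and the highest pool was pool 2 for Nrl and pool 3 for Prdm1. The nearest pair was Nrl and Neurod1, with a root mean square difference of 0.045 between their log2 signals, each centred on its own mean over the 3 pools. The other pairs differed by 0.268 (Crx and Nrl) to 0.422 (Nrl and Prdm1). Likeness over 3 pools is a description, since many genes follow any given pattern by so few points.

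Among 128 other listed genes above the floor on all arrays, the genes nearest to each factor were found by this measure. Crx was nearest to Banf1, a chromatin protein reported to bind Crx (2153.8, 1899 and 1880.8 in pools 1, 2 and 3; difference 0.025), then Ncoa1 and the cone gene Gngt2. Nrl was nearest to C1qc, a complement gene of microglia (583.6, 784 and 731.8; 0.025), followed by Sag (0.029) and Neurod1. Neurod1 was nearest to Sag (0.044), Nrl and Guca1a, which encodes a guanylate cyclase activator (1251.2, 1606.7 and 1759.6; 0.046). Prdm1 was nearest to Maf, a relative of Nrl (221.7, 146 and 239; 0.058), then Nr4a1 and Ehmt2.

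**Figure D5:**
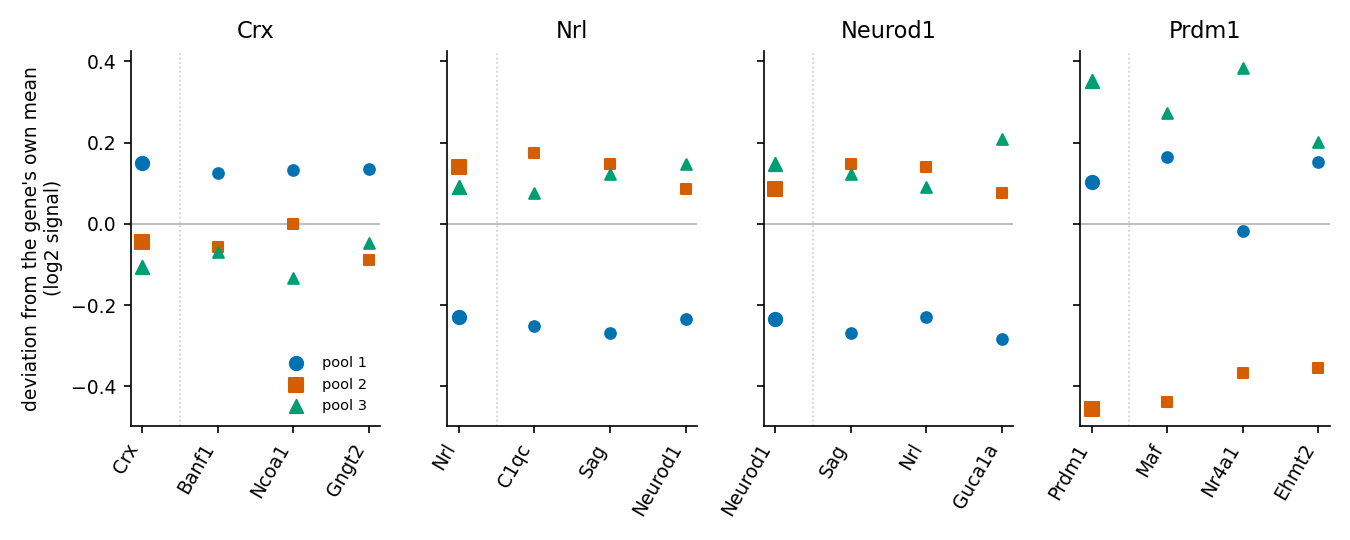
Pattern over the 3 pools of each measured factor and of the 3 listed genes nearest to it. The vertical axis is the deviation of log2 signal from the gene's own mean, and each point is 1 pool. Pool 1 is highest for Crx and lowest for Nrl and Neurod1, and pool 2 is lowest for Prdm1.

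Other transcription factors of the photoreceptor lineage were measured wherever they had a probe set. Of 27 listed factors 15 had 1, all 15 were measured, 14 were above the floor in every pool and 0 passed the test of variability (limma), with 0 at an unadjusted p under 0.05. Their median SD of log2 signal was 0.23. Rax, the homeodomain factor of the eye field, had 1676.7, 1416.3 and 1744.8 signal units in pools 1, 2 and 3. Neurod4, a relative of Neurod1 in bipolar cells, had 3922.4, 2760.5 and 3364, with pool 1 highest where Neurod1 had it lowest. Rora, an orphan receptor that takes part in cone opsin expression, had 734.9, 975 and 1088.6, the same order as Neurod1. A second Rora set was below the floor in all pools. Pias3, a SUMO ligase reported to bind Crx and Nrl, had 2704.7, 3340.9 and 2604.5 by its brightest set, and its other sets had different orders (733.2, 999.8 and 1063.9, and 2351.3, 1967.1 and 2346).

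Factors of cone patterning and of S-cone repression ranged from near the floor to well above it. Nr2f1, which patterns cone opsins, had 499.1, 473.4 and 240.7 signal units in pools 1, 2 and 3, and Nr2f2 had 426.5, 403.5 and 418.7, from a set built under relaxed rules, with its other set below the floor. Tbx2, needed for ultraviolet cones in zebrafish, was even by its brightest set at 1293.8, 1249.7 and 1287.2. Its other sets were less even (958.5, 679.4 and 726.6, and 112.4, 103.9 and 137.6). Sall3, a zinc finger factor of cones, had 262.6, 346.9 and 294.5. Nr1d1, a clock receptor found in photoreceptor complexes with Crx, had 478.7, 407.6 and 349. Esrrb, an orphan receptor of rods, was below the floor in pool 1 and above it in pools 2 and 3 (49.3, 186.3 and 164.5). Its fold change was not computed against the pool at background. Onecut1, a factor of horizontal cells and early cones, had 221.6, 130.7 and 171.2, and the progenitor factor Neurog2 260.5, 159.7 and 158.1. Otx2, Nr2e3 and Rorb were not analysed here.

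The relatives, dimer partners and inhibitors of Neurod1 had a median SD of log2 signal of 0.36, against 0.27 for all measured probe sets. Among 13 genes of this list 10 were measured, 0 passed the test (limma), and 4 had an unadjusted p under 0.05. Over all measured probe sets 445 of 8327 (5.34%) had such a p (limma). The SDs of this list were not set beside those of probe sets of like signal. Tcf4, an E protein that pairs with NeuroD factors, had 1524.5, 2632.7 and 1315.4 signal units in pools 1, 2 and 3 (limma, adjusted p = 0.832). Tcf12, another E protein, had 1089.3, 2221.6 and 1786.8 (limma, adjusted p = 0.833). Id2, which blocks E proteins, had 496.6, 1103.9 and 603.3, so that these 3 genes were highest in pool 2. Over all measured probe sets the orders with pool 2 highest were held by 15.5% and 18.2%. Neurod2 had 431.3, 295.6 and 97.6, below the floor in pool 3 (limma, adjusted p = 0.760). Tcf3 was at 338.6, 274.2 and 357.3.

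Proteins reported to bind Crx, Nrl or Prdm1 were for the most part measured, and 0 passed the test (limma). Of 10 Crx and Nrl partners with a probe set 9 were measured. Crebbp, a histone acetyltransferase, had 969.6, 630.1 and 1396.2 signal units in pools 1, 2 and 3. It was the 1 of the 9 with an unadjusted p under 0.05 (limma), against 5.34% of all measured probe sets. The RNA-binding protein Nono had 2910.4, 3286.5 and 2996.5 by its brightest set, and its other set was lowest in pool 2 (661.1, 491.3 and 548.6). Sp4, a zinc finger activator that works with Crx, had 191.7, 402.6 and 137.5 by its brightest set. Another measured set of Sp4 was highest in pool 3 (96.9, 134.1 and 254.1), and a set that was not measured had 90.4, 140.8 and 74.1. Of the corepressors of Prdm1, 6 of 7 were measured: Ehmt2, a histone methyltransferase, had 2003.6, 1408.3 and 2072.9, in the same order as Prdm1, Hdac2 had 1730.8, 2261.2 and 1717.3, and Hdac1 had 849.5, 688.3 and 672.1, with 0 of the 6 at an unadjusted p under 0.05.

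Paralogues of Crx and Nrl were few on the array. Of 4 Otx-related homeobox genes with a probe set 2 were measured, Rax and Pitx1 (240.5, 406.4 and 149.4 in pools 1, 2 and 3). Of the Maf family 3 of 4 were measured, with Mafg at 440.9, 421.3 and 433.7, Mafk at 298.9, 224.6 and 224 and Maf as given above. No gene of either list passed the test, and none had an unadjusted p under 0.05 (limma).

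Rod genes downstream of Crx and Nrl included 2 of 18 measured genes that passed the test, against 0.216% of all measured probe sets. Prph2, a disc rim protein, had 9356.3, 1469.1 and 1332.3 signal units in pools 1, 2 and 3 (limma, adjusted p = 0.00112), the order of pools of Crx. Gnb1, the transducin beta subunit, had 5367.5, 8246 and 19075.3 (limma, adjusted p = 0.0422), and its other sets had the same order with adjusted p-values of 0.587 and 0.176 (limma). Both ranges, 7.02-fold and 3.55-fold, exceeded the 1.19-fold and 1.29-fold of Crx and Nrl. Of the 18 genes 13 were highest in pool 2, as was Nrl, and 3 were highest in pool 1, as was Crx. Over all measured probe sets the orders with pool 2 highest were held by 15.5% and 18.2%, and those with pool 1 highest by 16.3% and 17.8%. The median log2 difference of the 18 was -0.36 for pool 1 minus pool 2, beside -0.37 for Nrl and 0.19 for Crx, and -0.10 for pool 1 minus pool 3. Pdc, the transducin regulator phosducin, had 19346.5, 21872.6 and 21449.3, and Pde6g, a phosphodiesterase subunit, 13079.7, 18298.3 and 16354.8, both in the order of Nrl. Summed signals of the list were 121224, 138308 and 136736.

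Cone genes were split evenly over the pools, with 2 of 6 measured genes highest in each, and 0 passed the test (limma). Opn1sw, the short-wave opsin, had 1836.9, 1697.3 and 2057.6 signal units in pools 1, 2 and 3. Opn1mw, the medium-wave opsin, had 274.3, 601.1 and 240.7 (limma, adjusted p = 0.833) and was highest in pool 2. It was the 1 of the 6 with an unadjusted p under 0.05 (limma), against 5.34% of all measured probe sets. Gnb3, the cone transducin beta subunit, had 6586.4, 4756.8 and 6497.

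Factors of the other retinal fates were measured for 22 of 25 genes with a probe set, and 0 passed the test (limma). An unadjusted p under 0.05 was held by 1 of the 22, against 5.34% of all measured probe sets (limma). Of the 22, 13 were highest in pool 1, as was Crx. Over all measured probe sets the orders with pool 1 highest were held by 16.3% and 17.8%. Pax6, a homeodomain factor of progenitors and amacrine cells, had 1663.7, 1707.8 and 1856.4 signal units in pools 1, 2 and 3. Isl1, of bipolar and ganglion cells, had 1515.8, 1465.5 and 966.3, and Lmo4 had 930.8, 1647.4 and 1043.5. Nr4a2, a nuclear receptor of amacrine cells, had 268.2, 144 and 78.7 by its brightest set, below the floor in pool 3. Its other measured set had 300.7, 90.7 and 79.5, below the floor in pools 2 and 3. Of pigment epithelium genes 5 of 9 were measured, summing to 3774, 4544 and 5870 over all 9, and Tyr and Tyrp1 were not. Rlbp1, which Müller glia also express, had 2014.4, 2832 and 3172.5, Dct 498.6, 449.8 and 649, and the melanosome gene Pmel 319.7, 327.7 and 908.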

How the data were processed

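The deposited values are linear intensity signals, 1 for every probe set on each array. With 2% of values trimmed at each end, the deposited intensity values average 500.3 on each array, so they were used without further scaling. Which software made them, and how it handled background, is not stated in the labels. Of 12488 probe sets, 66 controls were kept out of the gene results. Symbols came from the platform annotation and were updated through gene identifiers (10817 of 10833). A gene was represented by its brightest probe set. Signals below the floor were set to it before log2. Variability was tested in R 4.3.3 with limma 3.58.1, through a fit with no term but the intercept across all measured probe sets, a robust fit of the variances with an intensity trend, and Benjamini-Hochberg adjustment. The test was checked on simulated data in which unchanged probe sets of like signal shared the same SD. That check does not cover probe sets of like signal that differ in spread. Python 3.11.15, pandas 2.3.3, numpy 2.4.6 and matplotlib 3.10.9 were used elsewhere.

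The 6 genes and the 17 other gene lists were chosen with earlier results of these data known. Named from each list were the 3 measured genes with the highest mean signal, the gene with the largest SD and every gene that passed; from the other photoreceptor lineage factors, every gene with a probe set. Other genes were named after their values were seen: Xist, the rod and cone genes with a printed site, Mef2a, Mapk14, Tcf3, Id2, Crebbp, Slc4a1, Cx3cr1, C1qa, Cd68, Ighm, Mylpf and those given as not measured. Promoter sequences are from RefSeq (GRCm38.p6). All 6 genes matched by symbol, with 9 windows. The number of arrays limits the precision, and the p-values measure the spread between 3 pools.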

Additional observations from a re-analysis of the deposited data

How the results depend on the processing

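No paired analysis was possible because the samples form 1 group. The count of the 6 factors that passed the test was 0 under all 12 alternatives, and the direction of the median difference of the 4 measured factors was kept for pool 1 minus pool 2 and pool 1 minus pool 3. For pool 2 minus pool 3 it was -0.01, and 0.01 after quantile normalization. Adjusted p-values (limma) over the settings lay between 0.917 and 0.997 for Crx, 0.914 and 0.997 for Nrl, 0.821 and 0.995 for Neurod1, and 0.797 and 0.988 for Prdm1. Without pool 1 the unadjusted p of Prdm1 fell below 0.05. The median SD of the factors lay between 0.0436 and 0.243 with 1 pool left out, the lowest without pool 1, where Prdm1 had 0.57. It was 0.31 with the floor at the median control and 0.30 with log2(signal + 16) and no floor, where Mef2c and Rxrg entered. The factors counted as measured were 6 of 6 in both of those settings and without a filter, 5 without pool 2, and 3 among the brightest 25%, which left out Nrl. The 10 other listed genes that passed, Gnb1, Prph2 and 8 lens genes, became 6 with the mean of a gene's probe sets, 5 with an ordinary variance fit, 0 with log2(signal + 16), 0 without an intensity trend, and 2 to 11 with 1 pool left out; the cause was not tested. Over all probe sets the 18 that passed became 0 with log2(signal + 16), 0 without a trend, 6 with an ordinary fit, 8 with the mean of a gene's probe sets, 52 without a filter and 4 to 40 with 1 pool left out. Signals near the floor, as for Mef2c and Rxrg, are where these arrays limit any statement.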
